A study of Mus musculus with 6 samples.

Results

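The matrix metalloproteinases are zinc-dependent proteases that cut collagens, elastin and other proteins of the extracellular matrix, and the genes described here are 7 of them (Mmp2, Mmp3, Mmp9, Mmp11, Mmp12, Mmp13 and Mmp14), the related membrane protease Adam8, and Timp1 and Timp3, which encode tissue inhibitors of metalloproteinases. They were taken as the probe sets annotated with 1 of these 10 symbols and no other. All 10 genes were on the array, with 16 probe sets in all, among 12393 genes measured. Where a gene had several, the probe set with the highest mean level stands for it, and the others are described separately.

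The samples were tumors of the mammary gland from mice that received, for 21 days, either vehicle or VX680, miltefosine and WP1066 together. VX680 inhibits Aurora kinases, miltefosine is an alkylphosphocholine, and WP1066 inhibits JAK2 and STAT3 signalling. There were 3 vehicle and 3 drug samples, each on 1 Affymetrix mouse array, and this small number limits the precision. The labels give no strain, tumor model, age or dose. They leave unsaid whether the 3 samples of a group were separate animals, so the spread behind each p-value may not be that between animals. Values are log2 expression, on which a difference of 1 is a doubling.

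Most metalloproteinases are secreted as inactive proenzymes, and their activity is set by transcription, by removal of the propeptide and by TIMPs, which bind the active site. In tumors they are made by stromal cells, infiltrating myeloid cells and cancer cells. Mmp13 encodes a collagenase, Mmp3 a stromelysin of broad specificity and Mmp12 the macrophage elastase. Mmp2 and Mmp9 encode the gelatinases, Mmp14 a membrane-anchored protease that activates the Mmp2 proenzyme, and Mmp11 a stromelysin that furin activates inside the cell. Adam8 encodes a disintegrin and metalloprotease of leukocytes and tumor cells that sheds proteins from the cell surface. A transcript level does not measure protease activity.

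Mmp13, Mmp12 and Mmp3 lie in a run of 10 consecutive protein-coding genes on mouse chromosome 9, all of them metalloproteinases, in the order Mmp13, Mmp12, Mmp1b, Mmp3, Mmp1a, Mmp10, Mmp8, Mmp27, Mmp20 and Mmp7. In that run 8 of 10 genes have the letters TGANTCA, the binding motif of the AP-1 transcription factors, between 250 bases before and 50 bases after an annotated start. The motif reads the same on both strands, and 8.97% of 27025 genes in the RefSeq promoter table of GRCm38.p6 have it in such a window. Promoter windows of 8 of the 10 genes described here were in the table, and among these Mmp3, Mmp12 and Mmp13 have a match and Adam8, Mmp11, Mmp14, Timp1 and Timp3 have none. Mmp2 and Mmp9 were not in it. The stretches from 80 to 21 bases before the start are shown for these 3 genes and for Mmp10, a second stromelysin of the run, because these 4 genes had the largest differences among the metalloproteinases measured. Capitals mark the AP-1 match, and all 4 lie on the plus strand of GRCm38.p6, written 5′ to 3′.
Mmp13, chr9:7272434-7272493: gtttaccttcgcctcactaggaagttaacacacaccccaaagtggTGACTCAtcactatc
Mmp12, chr9:7347294-7347353: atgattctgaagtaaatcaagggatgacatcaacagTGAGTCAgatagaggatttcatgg
Mmp3, chr9:7445742-7445801: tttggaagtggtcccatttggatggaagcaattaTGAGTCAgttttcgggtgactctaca
Mmp10, chr9:7502262-7502321: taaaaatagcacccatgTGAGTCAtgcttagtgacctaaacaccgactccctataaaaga
The match begins 35, 44, 46 and 63 bases before the start in Mmp13, Mmp12, Mmp3 and Mmp10. For Mmp12 it is at 1 of 2 annotated starts. The STAT motif TTCNNNGAA, also the same on both strands, was in none of the 9 promoter windows of the 8 genes, and 9.55% of all genes have it. Of the run, Mmp1a, Mmp1b, Mmp7 and Mmp20 also have an AP-1 match, in Mmp7 at 1 of 2 annotated starts. These genes differed by -0.08 to 0.04 between drug and vehicle. Mmp1a, Mmp1b and Mmp20 had group means of 2.74 to 3.00, near the bottom of the scale, where a difference could hardly show. A match shows only that the letters are there.

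Drug-treated and vehicle tumors were compared to ask which of these transcripts differed with treatment. Adam8 was the only one of the 10 with separate groups, higher in the drug-treated tumors by 1.27-fold. Mmp13, Mmp3 and Mmp12 had larger differences in mean, 1.80-fold, 1.71-fold and 1.60-fold higher, with overlapping groups. Timp1 had the same mean in both groups to within 0.01, and Mmp9, Mmp11 and Timp3 differed by less than 0.1 on the log2 scale. The adjusted p of limma, which models all genes together and corrects for their number by Benjamini-Hochberg, did not fall under 0.05 for any of the 10 genes. It did so for 0% of the 12393 genes, while 1275 genes, 10.3%, had an unadjusted p under 0.05 (5.37% higher and 4.91% lower in drug). Of the 10 genes, 2 had an unadjusted p under 0.05, Adam8 and Mmp12, both higher. In 1 of 10 genes the groups did not overlap, against 17.1% of all genes (7.73% higher and 9.37% lower). In 7 of 10 the drug mean was higher, against 47.9% of all genes, and the median difference was 0.22, against -0.01 over all genes. In 3 of 10 the difference was over 0.5 in size, all higher, against 2.44% of all genes (1.36% higher). These 3, Mmp3, Mmp12 and Mmp13, lay at the 97.3rd to 99.4th percentile of spread within groups. The 10 genes were chosen with earlier results of these data known, so the shares describe them and are not a test.

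**Figure D1:**
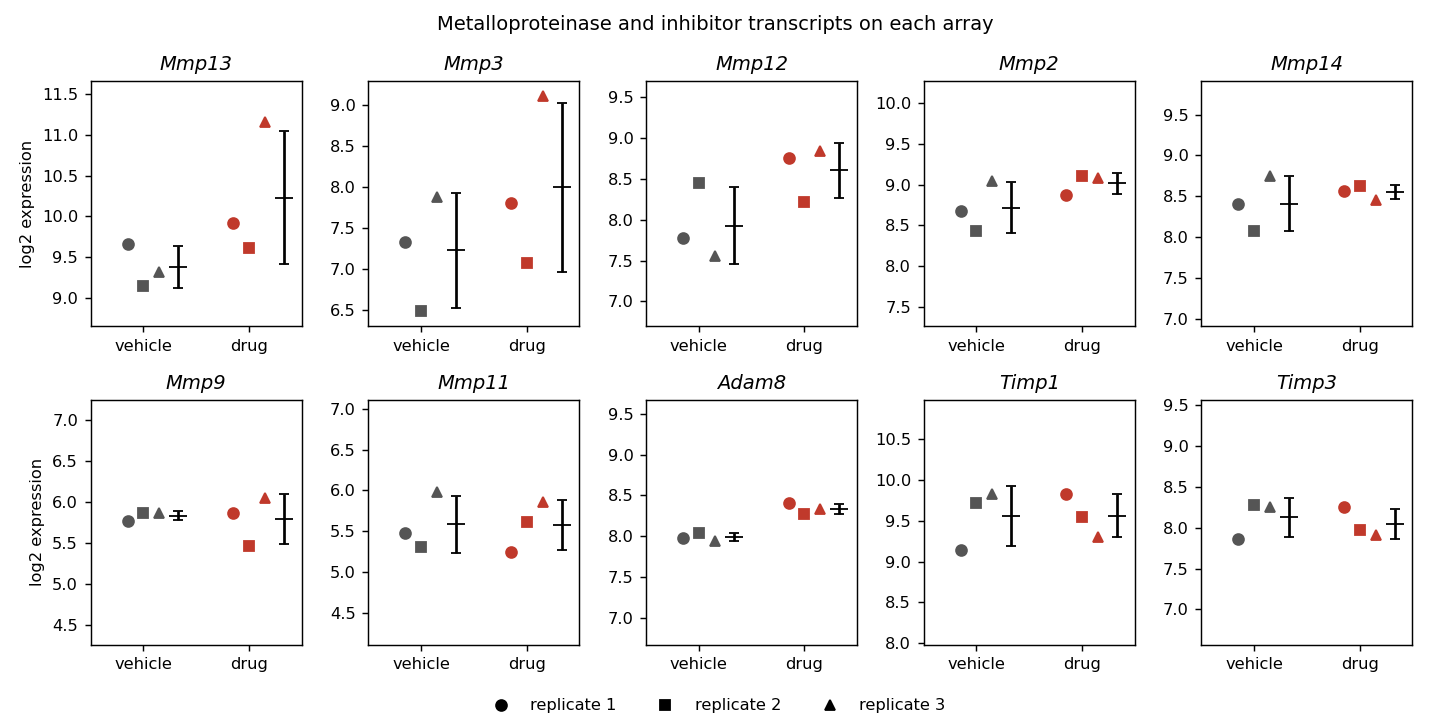
Log2 expression of the 10 genes on each of the 6 arrays, with vehicle in grey, drug in red and a marker shape for each replicate number, which names an array and pairs nothing. Black bars give the group mean ± SD (n = 3), every panel spans 3 log2 units, and Adam8 is the gene whose groups are apart, while drug replicate 3 is the highest array for Mmp13 and Mmp3.

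Adam8 measured 7.98, 8.04 and 7.95 on the vehicle arrays and 8.40, 8.28 and 8.34 on the drug arrays. All 3 drug values lay above all 3 vehicle values, and the gap between the groups was wider than the range within either. The means were 7.99 ± 0.05 and 8.34 ± 0.06 (SD, n = 3 each), a log2 difference of 0.35 ± 0.06 (SE) with a 95% interval of 0.21 to 0.49. By limma the unadjusted p was 0.000733, the 29th smallest of all genes (adjusted p = 0.267). An exact two-sided permutation test gave p = 0.1, the smallest that 3 against 3 arrays allow. Leaving out each array in turn gave differences of 0.32 to 0.38.

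Adam8 also differed from the other 9 genes in its spread. Its pooled SD within groups was 0.06, at the 18.6th percentile of all genes, and the median gene had 0.10. The other 9 genes lay at the 88.5th to 99.4th percentile, with Mmp3 at the top (pooled SD 0.89), then Mmp13 (0.61) and Mmp12 (0.41). A difference of a given size was therefore measured less precisely in these genes than in most.

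The collagenase Mmp13 measured 9.67, 9.15 and 9.32 on the vehicle arrays and 9.92, 9.62 and 11.16 on the drug arrays. Drug replicate 3 stood well above the other 5 arrays, and drug replicate 2 lay just below vehicle replicate 1. The means were 9.38 ± 0.26 and 10.23 ± 0.82 (SD, n = 3 each), a difference of 0.85 ± 0.39 (SE, 95% interval -0.10 to 1.80, limma unadjusted p = 0.0714, adjusted p = 0.522). Without drug replicate 3 the difference was 0.39, and without drug replicate 2 it was 1.16.

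The stromelysin Mmp3 measured 7.32, 6.48 and 7.88 on the vehicle arrays and 7.80, 7.07 and 9.12 on the drug arrays. Drug replicate 3 was again the highest array, while the other drug values lay inside the vehicle range. The difference was 0.77 ± 0.57 (SE, 95% interval -0.61 to 2.15, limma adjusted p = 0.687). It was 0.40 without vehicle replicate 2, and leaving out drug replicate 3 or drug replicate 2 gave 0.21 or 1.23. Mmp10, in the same chromosome 9 run, measured 6.80, 6.66 and 7.29 on the vehicle arrays and 7.56, 6.74 and 8.71 on the drug arrays. It had its highest value on the same array, and its difference of 0.76 ± 0.48 (SE) became 0.24 without drug replicate 3 and 1.22 without drug replicate 2.

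The macrophage elastase Mmp12 measured 7.77, 8.45 and 7.56 on the vehicle arrays and 8.75, 8.22 and 8.84 on the drug arrays. A single pair of arrays overlapped, with vehicle replicate 2 above drug replicate 2. The means were 7.93 ± 0.47 and 8.60 ± 0.34 (SD, n = 3 each), a difference of 0.68 ± 0.27 (SE, 95% interval 0.03 to 1.32, limma unadjusted p = 0.0419, adjusted p = 0.475). Leaving out each array in turn gave differences of 0.49 to 0.94, the largest without vehicle replicate 2. Without vehicle replicate 3 and drug replicate 1, the arrays richest in muscle transcripts, the difference was 0.42. Drug replicate 3 was the highest array for Mmp12 as well, by a small margin over drug replicate 1. Of the 10 genes, 4 had their highest value on that array (Mmp3, Mmp9, Mmp12 and Mmp13), against 18.7% of all genes. That array was picked from the values of these genes, so the share over all genes is given only as description.

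Not all genes of the chromosome 9 run shared these values. Mmp1a, Mmp1b and Mmp20 had group means of 2.74 to 3.00, near the bottom of the scale, and differences of -0.08 to 0.04. Mmp7, also called matrilysin, differed by -0.01 ± 0.06 (SE, n = 3 per group). Mmp1a, Mmp1b, Mmp20 and Mmp7 have the AP-1 match as Mmp13, Mmp12, Mmp3 and Mmp10 do. Mmp8, the collagenase of neutrophils, differed by -0.16 ± 0.05 (SE) with every drug value below every vehicle value, at means of 3.78 and 3.62, low on the scale. Mmp27 was not measured by a probe set of its own.

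**Figure D2:**
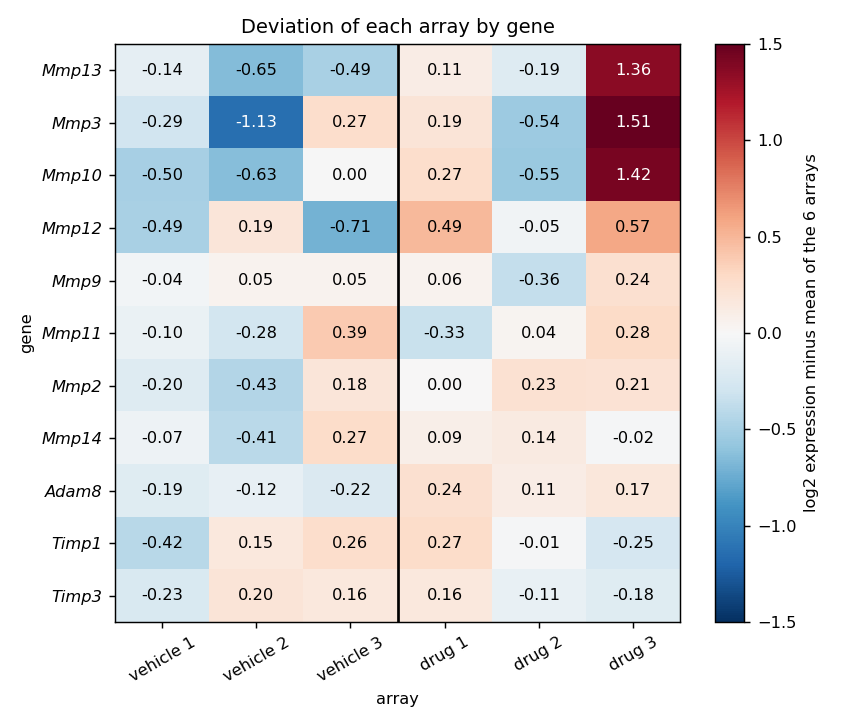
Log2 expression of each gene on each array minus that gene's mean over the 6 arrays, with higher values in red and lower in blue, for the 10 genes and Mmp10. The strongest red lies in drug replicate 3 for Mmp13, Mmp3 and Mmp10, the strongest blue in vehicle replicate 2 for Mmp3 and then in vehicle replicate 3 for Mmp12, and Adam8 is the gene with 1 sign in each group.

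The gelatinase Mmp2 measured 8.67, 8.43 and 9.05 on the vehicle arrays and 8.87, 9.10 and 9.08 on the drug arrays. The drug values were close together and 1 of them lay below vehicle replicate 3. The difference was 0.30 ± 0.16 (SE, 95% interval -0.08 to 0.68, limma adjusted p = 0.574). It was 0.46 without vehicle replicate 3 and 0.16 without vehicle replicate 2, and without both muscle-rich arrays it was 0.54. Its activator Mmp14 measured 8.41, 8.07 and 8.75 on the vehicle arrays and 8.57, 8.62 and 8.46 on the drug arrays, all inside the vehicle range. Mmp14 differed by 0.14 ± 0.17 (SE, limma adjusted p = 0.815), by 0.31 without vehicle replicate 3, by -0.03 without vehicle replicate 2 and by 0.30 without both muscle-rich arrays. With those arrays left out, Mmp2, Mmp11, Mmp14 and Adam8 had separate groups, 4 of 10 genes, against 41.1% of all genes. Vehicle replicate 2 was the lowest array for Mmp2, Mmp3, Mmp13 and Mmp14, 4 of 10 genes, against 13.4% of all genes. This array too was picked from the values of these genes.

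The gelatinase Mmp9 measured 5.77, 5.87 and 5.87 on the vehicle arrays and 5.87, 5.46 and 6.06 on the drug arrays, so the vehicle arrays lay inside the drug range. Its difference was -0.04 ± 0.15 (SE, 95% interval -0.40 to 0.32). Leaving out drug replicate 2 gave 0.13 and leaving out drug replicate 3 gave -0.17. Mmp11 measured 5.48, 5.30 and 5.97 on the vehicle arrays and 5.25, 5.62 and 5.86 on the drug arrays, with nearly the same range in each group. Its difference was -0.01 ± 0.22 (SE, 95% interval -0.53 to 0.51), and 0.35 without the muscle-rich arrays. The intervals of both genes include changes of 1.2-fold or more in either direction, so an equal level was not shown.

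Of the inhibitors, Timp1, which blocks most secreted metalloproteinases, measured 9.14, 9.71 and 9.82 on the vehicle arrays and 9.83, 9.54 and 9.30 on the drug arrays. The group means were 9.56 ± 0.37 and 9.56 ± 0.26 (SD, n = 3 each), and the difference was 0.00 ± 0.21 (SE, 95% interval -0.51 to 0.51). Leaving out vehicle replicate 1 gave -0.21 and leaving out drug replicate 3 gave 0.14, so its sign was not fixed. Timp3, which binds to the matrix and also blocks ADAM proteases, measured 7.86, 8.28 and 8.25 on the vehicle arrays and 8.25, 7.98 and 7.91 on the drug arrays. Its difference was -0.09 ± 0.14 (SE, 95% interval -0.43 to 0.26). Drug replicate 3, the highest array for Mmp13 and Mmp3, had the lowest drug value of both inhibitors, while vehicle replicate 1 had the lowest value of all arrays for both.

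**Figure D3:**
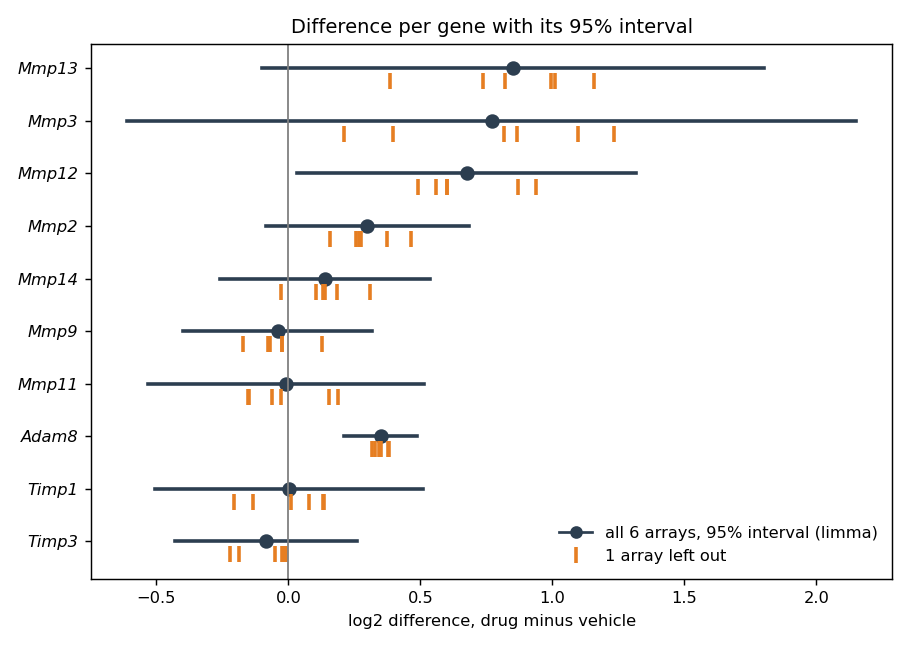
Log2 difference of each gene, drug minus vehicle, with its 95% interval from limma (circle and line), and the differences when 1 of the 6 arrays was left out (orange marks). The intervals of Adam8 and Mmp12 lie above 0, and the marks spread from 0.21 to 1.23 for Mmp3 but from 0.32 to 0.38 for Adam8.

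The other probe sets numbered 6, for 4 genes. Of these, 4 had the sign of the probe set used and 2 the opposite sign, and 0 had separate groups, against 17.1% of all genes. A second Mmp2 probe set differed by 0.26 ± 0.14 and a second Mmp14 probe set by 0.07 ± 0.14 (SE, n = 3 per group). A second Mmp9 probe set differed by 0.16 ± 0.20, against -0.04 for the one used. The other Timp3 probe sets differed by -0.11 ± 0.17, 0.04 ± 0.12 and -0.29 ± 0.17, the last at levels of 3.60 to 4.38, low on the scale. Adam8, Mmp3, Mmp11, Mmp12, Mmp13 and Timp1 had 1 probe set each and so no second measurement.

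Among the other genes of the pathway, 0 passed limma's adjusted threshold, as over all genes. From each list the genes with the smallest unadjusted p are named, which favours separate groups, and 17.1% of all genes had them. Of 6 other inhibitors measured, 3 had higher and 3 lower means, with a median difference of 0.04. Separate groups were found in 2 of the 6, both lower. Reck, a membrane-anchored inhibitor of several metalloproteinases, measured 5.38, 5.58 and 5.93 on the vehicle arrays and 5.21, 5.18 and 5.21 on the drug arrays. All drug values lay below all vehicle values, with a difference of -0.43 ± 0.13 (SE, limma unadjusted p = 0.0164, adjusted p = 0.405). Tfpi2, a serine protease inhibitor of the matrix, differed by 0.54 ± 0.29, and Pzp by -0.15 ± 0.06 at levels of 2.79 to 3.07. Timp2, which takes part in the activation of Mmp2 by Mmp14, differed by -0.02 ± 0.17, Timp4 by 0.11 ± 0.11 and A2m by 0.09 ± 0.07.

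Of 11 other metalloproteinases measured, 6 had higher and 5 lower means, with a median of 0.04 and a range of -0.16 (Mmp8) to 0.76 (Mmp10). Mmp17, a membrane-anchored member, differed by -0.12 ± 0.09 (SE, n = 3 per group). Of 12 other ADAM and ADAMTS proteases, 7 were higher and 5 lower, with a median of 0.06. Adam17, the sheddase of TNF and of EGF receptor ligands, differed by -0.13 ± 0.06 with every drug value below every vehicle value. Adam17 was the 1 gene of the 12 with separate groups, against 17.1% of all genes. Adamts4, an aggrecanase, differed by -0.20 ± 0.10 and Adam28 by 0.14 ± 0.08, with overlapping groups. By limma 0 of these 12 genes had an unadjusted p under 0.05, against 10.3% of all genes.

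Of 11 genes of the plasminogen system and of proenzyme activation, 5 were higher and 6 lower, with a median of -0.00. Furin, the convertase that activates Mmp11 and Mmp14, differed by 0.09 ± 0.05 with separate groups, the related convertase Pcsk6 by -0.18 ± 0.07 and the kallikrein Klk1 by -0.16 ± 0.07 (SE, n = 3 per group), both with every drug value below every vehicle value. Of 12 cathepsins, 4 were higher and 8 lower, with a median of -0.02. Ctsl and Ctsf, lysosomal cysteine proteases, differed by 0.22 ± 0.07 and 0.31 ± 0.11 and Ctsc, which activates granule proteases of leukocytes, by -0.18 ± 0.06, each with separate groups. Groups were separate in 2 higher and 1 lower of the 12 cathepsins. They were separate in 1 higher and 2 lower of the 11 plasminogen system and activation genes. Over all genes the shares were 7.73% higher and 9.37% lower.

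Of 17 matrix genes that encode substrates, 14 had higher means, with a median of 0.06. Col7a1, the collagen of anchoring fibrils, measured 7.23, 7.21 and 7.73 on the vehicle arrays and 7.995, 7.77 and 7.94 on the drug arrays, a difference of 0.51 ± 0.15 (SE, limma unadjusted p = 0.0138, adjusted p = 0.396). Eln, elastin, measured 6.91, 6.95 and 7.65 on the vehicle arrays and 6.51, 6.74 and 6.59 on the drug arrays, a difference of -0.55 ± 0.20. In both genes the groups did not overlap, 1 higher and 1 lower of the 17, against 17.1% of all genes. Col4a2, of basement membranes, differed by 0.12 ± 0.08.

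Of 20 genes that induce metalloproteinase transcription or hold the proteases at the cell surface, 10 were higher and 10 lower, with a median of -0.01. Cd44, a hyaluronan receptor that docks Mmp9 and Mmp14, measured 9.30, 9.29 and 9.48 on the vehicle arrays and 9.65, 9.64 and 9.67 on the drug arrays. The drug values lay close together above the vehicle values, with a difference of 0.29 ± 0.07 (SE, limma unadjusted p = 0.00359, adjusted p = 0.321). The ETS factors Etv5 and Ets1 differed by -0.33 ± 0.12 and -0.26 ± 0.10. Of the 20 genes, 1 higher (Cd44) and 1 lower (Etv5) had separate groups, against 17.1% of all genes. The 7 AP-1 subunit genes measured, which encode the proteins that bind the motif shown above, differed by -0.12 to 0.25, and in 0 of 7 were the groups separate, against 17.1% of all genes. The largest was Fosl1, which measured 5.35, 5.37 and 5.16 on the vehicle arrays and 5.41, 5.20 and 6.01 on the drug arrays and was named after its values were seen. Its highest value was on drug replicate 3, and without that array its difference was 0.01. A transcript level does not measure AP-1 activity, and the part of AP-1 in the metalloproteinase values was not tested.

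Tumor tissue holds several cell types, and in bulk RNA fewer cells of a type and less RNA per cell cannot be told apart. The epithelial genes Krt8, at 12.40 to 12.67, and Epcam, at 11.88 to 12.00, were high on the 6 arrays. The hormone receptor genes Esr1 and Pgr lay between 2.69 and 3.21. Fibroblast markers had a mean of 7.67 to 8.73 over the vehicle arrays and 8.27 to 8.51 over the drug arrays. Of these markers, 9 of 12 had higher means in drug. Vehicle replicate 2 was lowest for them, the array on which Mmp2, Mmp3, Mmp13 and Mmp14 were lowest. That array was also the lowest for neutrophil, basal epithelial, endothelial, adipocyte and red blood cell markers. Macrophage markers ranged from 8.39 to 8.81 on the vehicle arrays and from 8.33 to 8.69 in drug, with 6 of 12 higher in drug and drug replicate 3 lowest, where Mmp12 was highest. The macrophage markers differed by -0.48 (Fcgr1) to 0.30 (Msr1), these extremes being the markers of that list with separate groups, while Mmp12 differed by 0.68. Neutrophil markers ranged from 6.46 to 6.57 on the vehicle arrays and from 6.54 to 6.89 in drug, with 7 of 10 higher. In that list S100a8 differed by 0.88 with overlapping groups, while Cxcr2 and Ngp stayed at 3.96 to 4.40 on all arrays. Clec4d, the marker of that list with separate groups, differed by 0.63. Basal epithelial markers ranged from 7.55 to 7.77 on the vehicle arrays and from 7.92 to 8.02 in drug, with separate groups as for Adam8 and 8 of 12 markers higher. Luminal markers ranged from 9.17 to 9.27 and from 9.11 to 9.27, with 8 of 11 higher. The largest difference of that list was lower, in Foxa1. It measured 6.18, 6.11 and 6.60 on the vehicle arrays and 4.74, 5.52 and 5.04 on the drug arrays, a difference of -1.20. The part of these cell types in the metalloproteinase values was not tested.

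**Figure D4:**
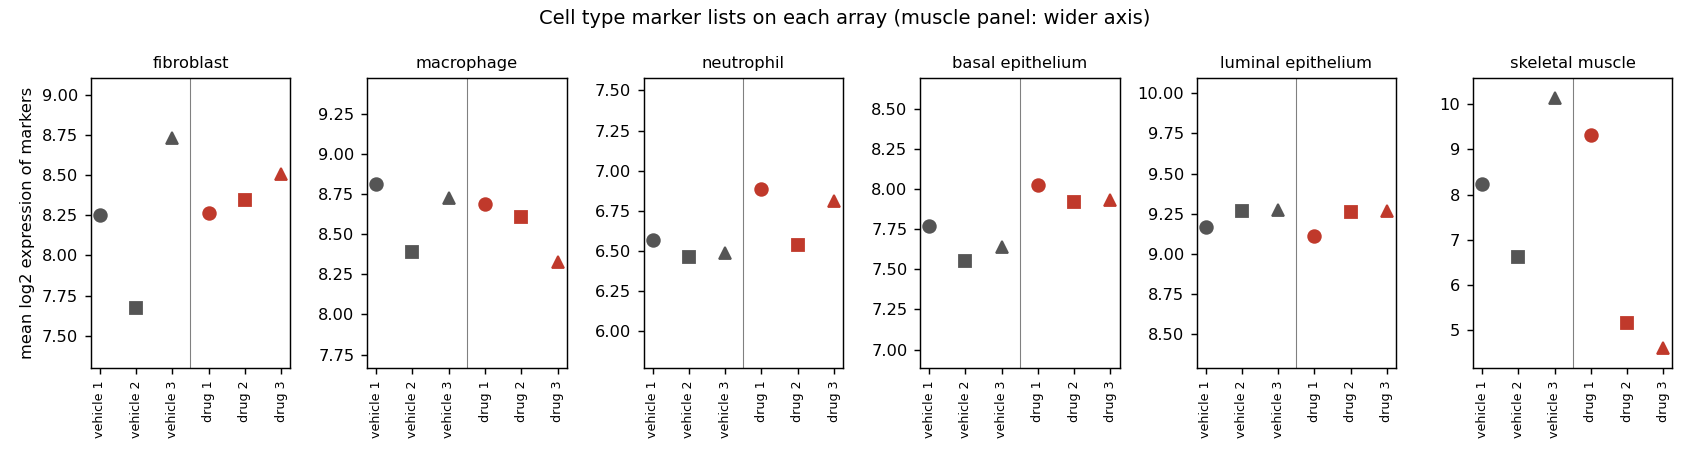
Mean log2 expression of the marker genes of 6 cell types on each array, with vehicle in grey and drug in red. The muscle panel has a wider axis. Vehicle replicate 2 is lowest for fibroblast, neutrophil and basal markers. Basal markers are higher on the 3 drug arrays, and muscle markers are high on vehicle replicate 3 and drug replicate 1.

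Skeletal muscle markers varied most, from 6.62 to 10.13 on the vehicle arrays and from 4.61 to 9.32 in drug, with 0 of 15 higher in drug. The muscle-rich arrays named above are the highest of each group. With both left out, the arrays kept had muscle levels of 8.23 and 6.62 in vehicle and 5.15 and 4.61 in drug. Muscle markers separated the groups there, so that setting does not balance muscle between them. Adam8 differed by 0.30 in that setting and by 0.36 with the muscle level as a covariate. Adipocyte (5.62 to 7.94 and 6.12 to 7.59) and endothelial markers (6.20 to 6.55 and 6.33 to 6.59) overlapped between vehicle and drug. T and NK cell markers (5.09 to 5.20 and 4.93 to 5.04) were lower in mean on all drug arrays, with 3 of 11 markers higher. Cd3d (-0.52) and Cd3g (-0.46) had separate groups, while Cd8a differed by -0.03. B and plasma cell markers (5.37 to 5.74 and 4.70 to 4.95) were also lower in mean on all drug arrays, with 1 of 8 higher. Jchain (-1.84) and Igha (-1.93) had separate groups, while Pax5 differed by -0.09 and Ighm by 0.00. Mast cell markers (4.69 to 5.21 and 5.31 to 5.67) were higher in mean on all drug arrays, with 7 of 9 markers higher. Cpa3, Cma1, Mcpt4, Tpsb2 and Tpsab1 differed by 0.61 to 1.67, while Kit, Ms4a2, Hdc and Fcer1a differed by -0.26 to 0.07. Red blood cell markers (4.48 to 4.68 and 4.95 to 5.43) were higher in mean on all drug arrays, with 5 of 5 markers higher. Ranges in brackets are in the order vehicle then drug.

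The genes whose values over the 6 arrays were most like each metalloproteinase were found by Pearson's r among 12099 named genes. With 6 arrays and that many candidates the highest r is large for almost any gene, so these are descriptions of pattern. Nearest to Adam8 were Sostdc1 (r = 0.999), a secreted BMP antagonist, and Cd82 (r = 0.995), a tetraspanin. Sostdc1 measured 4.62, 4.76 and 4.47 on the vehicle arrays and 5.67, 5.36 and 5.46 on the drug arrays, so it ordered the arrays as Adam8 did. Nearest to Mmp2 were Pde1a (r = 0.991) and Htra3 (r = 0.991), a secreted serine protease, to Mmp3 Nectin1 (r = 0.989) and Synpo (r = 0.988), to Mmp12 Pdk1 (r = 0.993) and Eya2 (r = 0.987), and to Mmp13 B4galt6 (r = 0.985) and Tmem87a (r = 0.985). Nearest to Mmp9 were Sox15 (r = 0.998) and Magea5 (r = 0.996), to Mmp11 Myl6b (r = 0.996) and Flna (r = 0.986), and to Mmp14 H1f6 (r = 0.992) and Bmp6 (r = 0.984). Nearest to Timp1 were Dlk2 (r = 0.986) and Crybb3 (r = 0.977), and to Timp3 Rasl12 (r = 0.990) and Grk4 (r = 0.980). None of the 10 genes was among the 2 nearest of another.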

How the data were processed

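Total RNA of 6 mammary tumor samples was isolated with a column kit and hybridised to Affymetrix arrays, per the labels' protocols. The authors deposited a table of log2 values for 22690 probe sets, made with Affymetrix Expression Console per the submitters' processing notes. Version, summarisation and normalization method: not given in the sources used here. Base 2 was inferred from the values' range. Array medians were 6.70 to 6.73, so the values were used as deposited, and a change shared by most genes could be hidden. Detection calls were not used here.

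Gene names came from the platform annotation and Entrez identifiers of the GRCm38.p6 table (99.9% matched). Of them 20380 had 1 symbol. For each gene the one with the highest mean was tested, 12393 in all, with limma 3.58.1 in R 4.3.3 (lmFit, eBayes, two-sided, threshold 0.05 after Benjamini-Hochberg adjustment over all genes). The other probe sets were fitted among all 20380. The procedure was run on simulated data with independent normal noise. For recovery, its pass rule covered only effects larger than those of the 10 genes. It does not show that differences of their size would be found. Alternatives were the mean of a gene's probe sets, a level filter (at least 5 on 3 arrays), quantile and median normalization, array weights, robust eBayes with a trend, leaving out each array or both muscle-rich arrays, a muscle covariate and a threshold of 0.1. The 10 genes, the 7 pathway lists, the 12 marker lists and the alternatives were chosen with earlier results of these data known. The text names the 10 genes, the 3 genes with the smallest unadjusted p of each pathway list (with further members of the metalloproteinase and inhibitor lists), and the 2 genes nearest to each of the 10, leaving out predicted and unnamed transcripts and olfactory receptors. Some genes are in more than 1 list. Marker genes beside the results and Fosl1 were picked after their values were seen. Figures were drawn with matplotlib 3.10.9.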

Additional observations from a re-analysis of the deposited data

How the results depend on the processing

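With limma, 0 of the 10 genes passed the adjusted threshold in any of the 14 settings that changed the fit, and 11 of 140 differences turned sign. The adjusted p of Adam8 ranged from 0.13 to 0.522. No gene of the 12393 passed with all arrays kept, also at a threshold of 0.1, and leaving out 1 array gave 0 to 3 genes, the 3 being Gsta3, Serpinb2 and Slc2a9 without drug replicate 2. Sign turned with the mean of all probe sets for Mmp9 (0.059), with array weights for Mmp11 (0.032), with the muscle covariate for Timp3 (0.0067), and with both muscle-rich arrays left out for Mmp11 (0.35) and Timp1 (-0.0003). With 1 array left out, the ranges that crossed 0 were -0.17 to 0.13 for Mmp9, -0.15 to 0.19 for Mmp11, -0.029 to 0.31 for Mmp14 and -0.21 to 0.14 for Timp1. Separate groups were found for 1 to 4 of the 10 genes with 1 array left out and for 4 with both muscle-rich arrays left out, where fewer arrays make separation easier (25.8% to 29.2% and 41.1% of all genes). The median over the 10 genes was 0.12 to 0.32 over the settings. No paired analysis was possible because the labels give no replicate numbers. Values under about 4 lie low on the scale, and no detection call was used to bound them.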

Other observations

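Serpinb2, the plasminogen activator inhibitor of macrophages and keratinocytes, measured 5.81, 5.88 and 5.66 on the vehicle arrays and 7.41, 4.76 and 7.31 on the drug arrays, and was named after its values were seen. Drug replicate 2 was the lowest of the 6 arrays and the other drug arrays the highest, with a difference of 0.71 ± 0.69 (SE, n = 3 per group). Drug replicate 2 was also the lowest drug array for Mmp3, Mmp9, Mmp10, Mmp12 and Mmp13. That array was picked from these values, and the share over all genes was not counted, so this is only a description. Htra3, near to Mmp2 in pattern, differed by 0.66 ± 0.32 (SE) and measured 6.61, 6.29 and 7.50 on the vehicle arrays and 7.12, 7.72 and 7.52 on the drug arrays, with overlapping groups.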
